A study of Homo sapiens with 15 samples.

Results

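The promoters of 6 genes of insulin and insulin-like growth factor (IGF) signalling, IGF1R, INSR, IRS1, IRS2, IGFBP3 and IGFBP5, were examined through their chromatin loops. A loop was taken as a member where a 1 kb anchor lay at least partly within 2500 bp of the start of 1 of these genes, and 200 of the 505995 different loops met this rule. IRS2 had 62 loops, IGF1R 40, INSR 34, IRS1 25, IGFBP3 25 and IGFBP5 14. HiChIP joins DNA ends that are close to each other in fixed nuclei and then enriches, with an antibody, the joined fragments that bear a given histone mark, and each sequenced fragment gives a read pair. All groups were LNCaP cells, an established prostate cancer line that responds to androgen. The cells were kept for 3 days in medium with charcoal-stripped serum, which is poor in steroids, and then received ethanol vehicle (0 m) or the androgen dihydrotestosterone (DHT) at 10 nM, and were collected 30 m, 4 h, 16 h and lastly 72 h later. H3K27ac, a mark of active enhancers and promoters, was labelled with 2 replicates per time point and H3K4me3, a mark of active promoters, with 1, which gave 15 samples but only 10 tables of values, 1 per mark and time point.

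Insulin and the IGFs bind INSR and IGF1R, related receptor tyrosine kinases at the cell surface. The activated receptors phosphorylate the adaptors IRS1 and IRS2, which recruit PI3-kinase and so switch on AKT and mTOR, the branch that drives growth, glucose uptake and survival. IGFBP3 and IGFBP5 are secreted proteins that bind IGFs outside the cell and limit or prolong their access to the receptor. In prostate cancer cells this pathway is known as a growth and survival route that runs beside androgen signalling.

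Contact, the deposited value of a loop, is a signal that was made comparable across the 5 time points within each mark, and the contact of a promoter is the sum over its loops. Every value was a whole multiple of the value of 1 read pair, so the read pairs behind it could be recovered. The H3K27ac tables held 2475168 to 4308555 read pairs in loops and those of H3K4me3 2153262 to 10675614, the most at 4 h. With a single value per loop, mark and time point there is no replicate error, so no p-value is given, and whether both H3K27ac replicates entered a value is not stated. A contact can be higher because the anchors met more often or because they carried more of the mark, and the tables cannot tell these apart. All intervals are 95% intervals of the read pairs, which cover counting error only. The luminal prostate genes KLK3, KLK2, TMPRSS2 and FOXA1 had 7 to 56 loops each, and the basal genes KRT5, KRT14 and TP63 had 0.

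The 150 bases before each start are shown because the start is what gave each gene its loops. They lie between or beside the 1 kb anchors and not inside them. They are read 5′ to 3′ on the strand of the gene from GRCh37 (hg19), with each CG dinucleotide in capitals.
IGF1R promoter, chr15:99191618-99191767, plus strand: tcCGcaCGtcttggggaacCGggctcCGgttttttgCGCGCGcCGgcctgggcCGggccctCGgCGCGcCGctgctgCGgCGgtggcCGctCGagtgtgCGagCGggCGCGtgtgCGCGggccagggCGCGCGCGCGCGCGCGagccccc
INSR promoter, chr19:7294426-7294575, minus strand: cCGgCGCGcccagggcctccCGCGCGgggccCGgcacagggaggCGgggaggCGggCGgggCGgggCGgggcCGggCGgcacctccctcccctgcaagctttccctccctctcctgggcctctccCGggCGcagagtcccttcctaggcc
IRS1 promoter, chr2:227664537-227664686, minus strand: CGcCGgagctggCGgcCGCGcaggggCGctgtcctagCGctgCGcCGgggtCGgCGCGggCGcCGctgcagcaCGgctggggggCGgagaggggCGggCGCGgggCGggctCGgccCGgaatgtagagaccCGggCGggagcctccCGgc
IRS2 promoter, chr13:110438931-110439080, minus strand: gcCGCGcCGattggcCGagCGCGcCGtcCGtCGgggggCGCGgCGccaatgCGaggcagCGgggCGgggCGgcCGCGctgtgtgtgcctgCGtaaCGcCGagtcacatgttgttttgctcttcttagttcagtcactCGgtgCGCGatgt
IGFBP3 promoter, chr7:45960872-45961021, minus strand: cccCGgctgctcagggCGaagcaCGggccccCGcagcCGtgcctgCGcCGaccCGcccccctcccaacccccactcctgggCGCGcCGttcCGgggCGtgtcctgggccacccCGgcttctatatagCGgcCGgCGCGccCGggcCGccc
IGFBP5 promoter, chr2:217560273-217560422, minus strand: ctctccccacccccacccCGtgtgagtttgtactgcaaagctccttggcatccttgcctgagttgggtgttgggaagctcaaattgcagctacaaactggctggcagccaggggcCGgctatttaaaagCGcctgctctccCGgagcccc
The IGF1R stretch held 31 CG dinucleotides, IRS1 25, IRS2 24, IGFBP3 20, INSR 16 and IGFBP5 4. Over 19862 protein-coding promoters the median was 12, with quartiles of 5 and 18, so that IGF1R was above 99.4% of promoters and IGFBP5 above 21.1%. GC content was 81.3% for IGF1R and INSR, 83.3% for IRS1, 69.3% for IRS2, 80.0% for IGFBP3 and 59.3% for IGFBP5, against a median of 66.0%. The letters GGGCGG, a GC box, occurred on either strand in the stretches of INSR, IRS1, IRS2 and IGFBP3, and in 52.7% of all promoters. IGFBP5, with the fewest CG dinucleotides, also had the fewest loops and the lowest H3K4me3 contact of the 6 in every table.

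The 6 promoters were looped mainly through the H3K4me3 set. Of the 200 loops, 163 were called only in H3K4me3 (81.5%, exact binomial interval 75.4% to 86.6%), 18 only in H3K27ac and 19 in both, while 59.7% of all 307720 loops with a protein-coding promoter were called only in H3K4me3. The share was 88.7% for IRS2, 87.5% for IGF1R, 84.0% for IRS1, 82.4% for INSR and 76.0% for IGFBP3. IGFBP5 was the exception, with 5 of 14 loops called only in H3K4me3 and 8 only in H3K27ac. Loops of a gene share an anchor and are not independent of each other. Among the 16258 promoters with a loop the median number was 20, with quartiles of 6 and 38, so that IRS2 lay above 91.6% of promoters and IGFBP5 above 39.3%.

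Loops were longer for the binding proteins and for IRS1 than for the receptors. The median distance between anchors was 197.5 kb for IGF1R, 222.5 kb for INSR, 410.0 kb for IGFBP3, 525.0 kb for IGFBP5 and 580.0 kb for IRS1, with IRS2 between INSR and IGFBP3, against 225.0 kb for all loops with a protein-coding promoter. IGF1R and INSR are long genes, of 316 kb and 182 kb, and 19 of 40 and 11 of 34 of their far anchors lay inside the gene itself. No far anchor of IRS2 or IGFBP5 did so, and 1 did for IRS1 and 1 for IGFBP3. The loops of IRS1 ran downstream in 23 of 25 cases, and those of IGFBP3 upstream in 23 of 25. INSR was the only one of the 6 with many promoter partners, since another protein-coding promoter lay at 14 of its 34 far anchors, at 3 of 40 for IGF1R, at 1 each for IRS1, IGFBP3 and IGFBP5, and at 0 of 62 for IRS2. No other protein-coding promoter shared the near anchors of any of the 6.

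**Figure D1:**
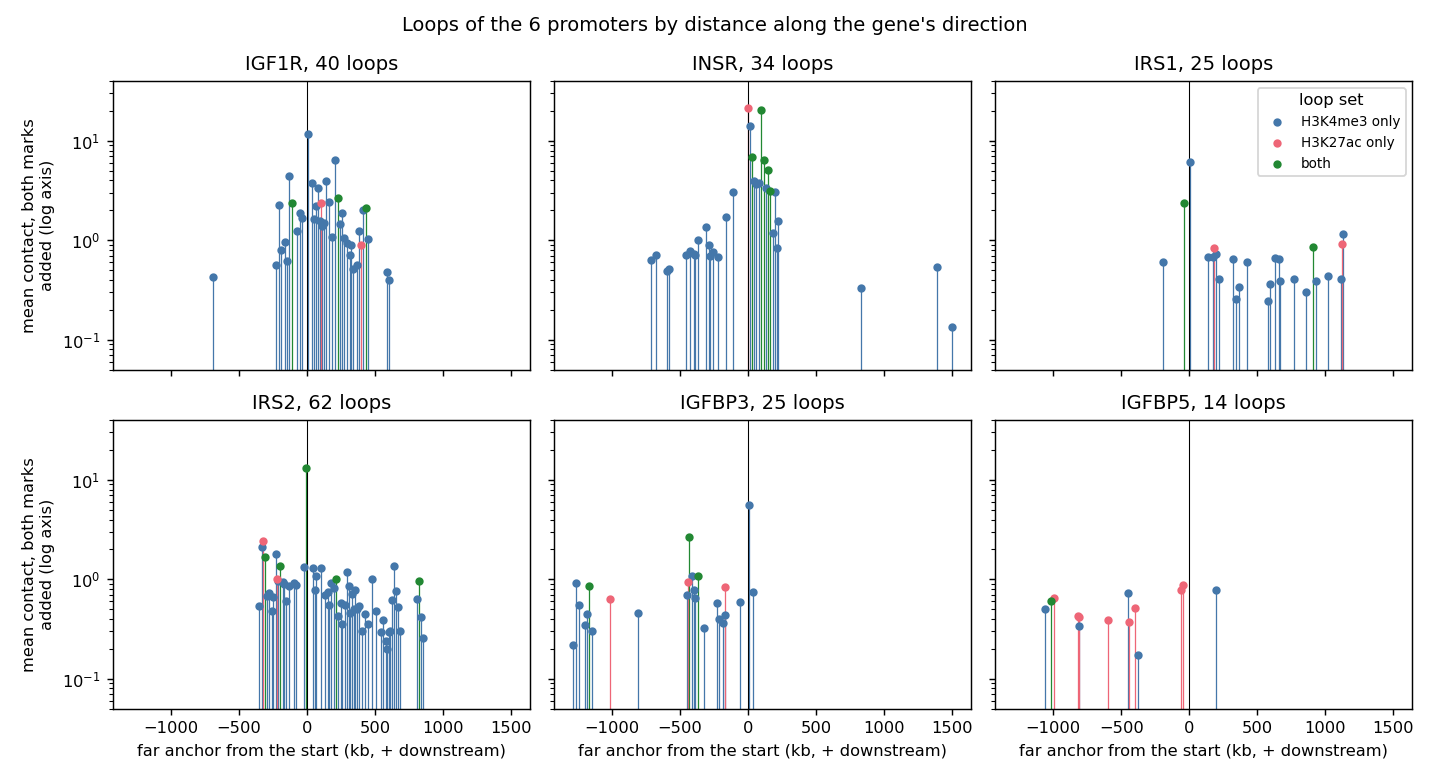
Each panel shows the loops of 1 promoter, with the far anchor's distance from the start in kb along the direction of the gene on the x axis and the mean contact over the 5 time points, H3K27ac and H3K4me3 added, on a log y axis. Colours give the loop set, and the loops of IRS1 spread mostly downstream while those of IGFBP3 and IGFBP5 spread mostly upstream.

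**Figure D2:**
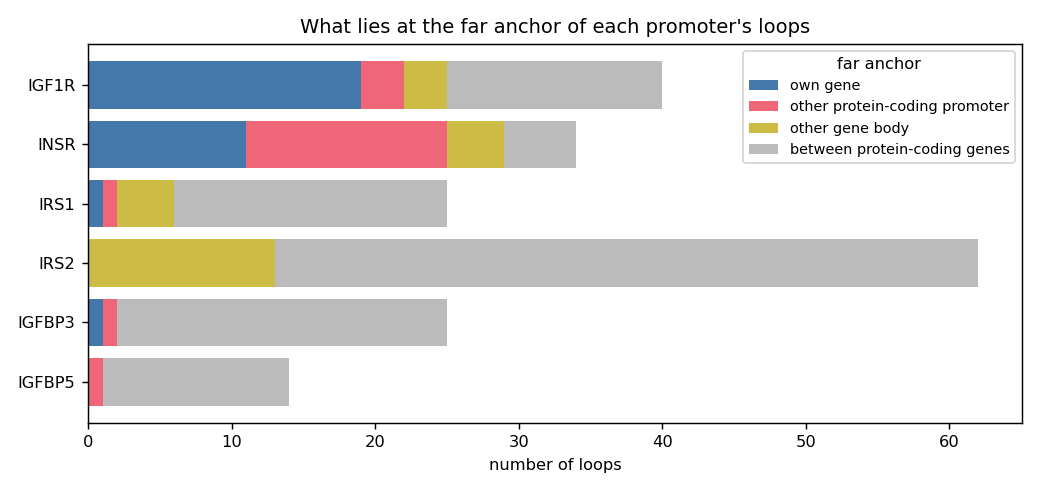
Bars give the number of loops of each promoter by what lies at the far anchor. Loops within the gene itself make up much of IGF1R and INSR, and 14 of the 34 INSR loops reach another promoter.

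Against 0 m, the contact of a promoter was called changed where it was past 1.5-fold with at least 100 read pairs over both tables. In H3K27ac only IGF1R, INSR and IRS2 reached that number. IRS2 did so partly through the later tables, since it had 46 read pairs at 0 m. INSR alone was higher at 30 m, 1 of 3 where 19.7% of all promoters were higher, and again at 72 h, 1 of 3 against 18.9%. At 4 h 0 of 3 were higher against 2.1% of promoters, and at 16 h 0 of 3 against 19.9%. None of the 3 was lower at any of the 4 later time points, where in order 2.06%, 0.609%, 4.8% and 3.86% of promoters were lower. A count of 0 or 1 of 3 is near these shares and says nothing particular to the genes.

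In H3K4me3, contact of IGF1R, INSR and IRS2 was higher at 4 h, 3 of the 5 with enough read pairs, where 14.3% of all promoters were higher. At 16 h IGF1R and IRS1 were higher, 2 of 5, against 2.8% of promoters. At 30 m 0 of 3 were higher against 0.461%, and at 72 h 0 of 4 against 0.655%. None was lower, 0 of 3 at 30 m, 0 of 5 at 4 h, 0 of 5 at 16 h and 0 of 4 at 72 h, where 0.677%, 1.71%, 0.282% and 5.64% of promoters were lower. IRS1 and IGFBP3 passed the filter partly through the later table, since each had under 50 read pairs at 0 m, so these counts are given as a description.

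The scaling among time points moved these calls for promoters at large. When read pairs were instead scaled to equal totals, log2 changes moved by between -0.25 at 16 h in H3K27ac and 0.13 at 72 h in H3K4me3. Of the promoters called at 4 h in H3K4me3, 89.4% were higher under the deposited scaling and 50.8% under equal totals, and the 3 genes IGF1R, INSR and IRS2 were called under both, with 5.32% of all promoters called higher under equal totals. At 16 h in H3K4me3 the share was 90.9% and 52.5%, and under equal totals, where 1.02% of all promoters were called higher, IRS1 was called and IGF1R was not. At 72 h in H3K4me3 it was 10.4% and 47.2%, and IRS2 and IGFBP3 were called higher only under equal totals, where 1.63% of all promoters were. At 30 m in H3K4me3 it was 40.5% and 29.8%, with 0 of the 3 tested called under either. In H3K27ac the share was 90.5% and 79.9% at 30 m, 77.5% and 55.1% at 4 h, 80.6% and 38.7% at 16 h, and 83.0% and 55.4% at 72 h. INSR was called at 30 m under both scalings, with 12.7% of all promoters higher under equal totals, and at 72 h only under the deposited one.

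**Figure D3:**
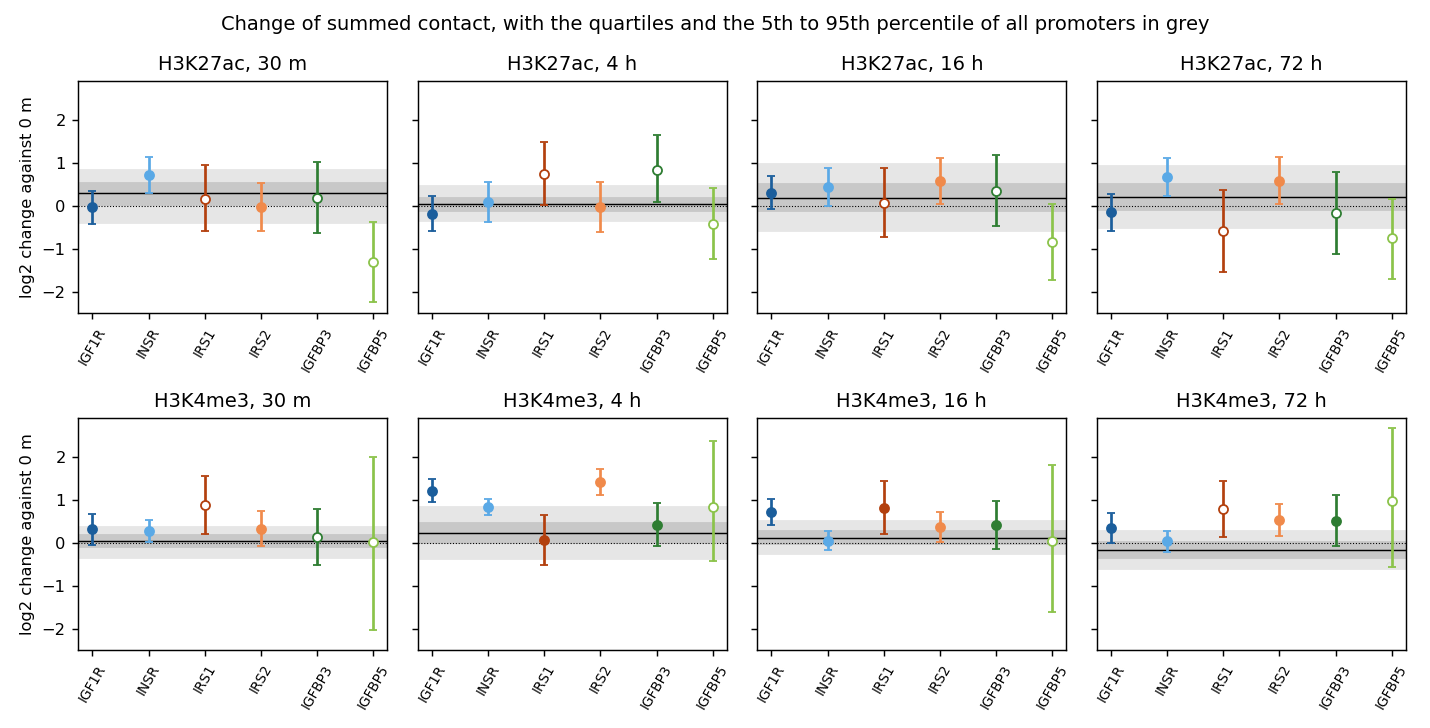
Each panel gives, for 1 mark and time point, the log2 change of summed contact against 0 m for the 6 genes, with 95% counting intervals. Filled points had at least 100 read pairs over both tables, open points fewer. Dark and light grey are the quartiles and the 5th to 95th percentile of all promoters tested, with their median as a line, and IGF1R and IRS2 stand well above the light band in H3K4me3 at 4 h.

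IGF1R, the type 1 IGF receptor, starts at chr15:99191768 on the plus strand. Its H3K4me3 contact was 35.3 in vehicle, 43.7 after 30 m, 81.6 after 4 h, 57.8 after 16 h and 44.8 after 72 h. The 4 h and 16 h values stood above 0 m, with counting intervals that did not overlap (76.7 to 86.7 and 51.4 to 64.7, against 29.3 to 42.0). The log2 change was 1.21 at 4 h (0.94 to 1.49, from 125 and 1030 read pairs) and 0.71 at 16 h (0.41 to 1.03), while the median over all promoters was 0.23 and 0.12. The 4 h table is also the deepest of its mark, and the part of depth in the change was not tested. H3K27ac contact was 27.03, 26.5, 23.9, 33.3 and 24.5 at the same time points, with all 4 changes holding 0 in their intervals, of which the largest was 0.30 at 16 h (-0.08 to 0.69).

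The strongest contact of IGF1R in both marks was with chr15:99202001-99203000, 10 kb into the gene in an intron. In H3K4me3 this loop had a contact of 7.61, 4.78, 10.9, 7.93 and 4.40 over the 5 time points. Next in both marks was an intron anchor 205 kb downstream, chr15:99397001-99398000, with an H3K4me3 contact of 3.95, 2.39, 6.97, 5.22 and 3.85. The third was an intron anchor 140 kb downstream in H3K27ac, chr15:99332001-99333000, and in H3K4me3 an anchor 130 kb upstream on an exon of the pseudogene FAM169BP, chr15:99062001-99063000. All of these IGF1R loops were called only in H3K4me3, so their H3K27ac contact was read without a call in that mark. Without the short loop, loops of at least 20 kb gave at 4 h a log2 change of 1.35 (1.05 to 1.67). By length, the H3K4me3 change at 16 h was 0.98 for the 19 loops of 100 to 300 kb (0.53 to 1.44) and 0.06 for the 10 kb loop (-0.68 to 0.82), on 27 and 41 read pairs in the latter. It was 0.81 for the 8 loops of 20 to 100 kb (0.10 to 1.58) and 0.37 for the 10 loops of 300 to 600 kb (-0.49 to 1.28), so these intervals overlapped and the change did not rise with length throughout. Its promoter partners were SYNM, an intermediate filament gene, with a summed mean contact of both marks of 1.04, ARRDC4 with 0.43, and LRRC28 and TTC23, which share an anchor, with 0.40.

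INSR, the insulin receptor, starts at chr19:7294425 on the minus strand and had the highest H3K4me3 contact of the 6 in every table. The values were 73.9 in vehicle, 89.5 after 30 m, 131 after 4 h, 76.5 after 16 h and 75.6 after 72 h. The 4 h value stood apart from the others, and those at 16 h and 72 h lay within the counting interval of 0 m (65.2 to 83.4). The log2 change was 0.83 at 4 h (0.64 to 1.02, from 262 and 1656 read pairs) and 0.28 at 30 m (0.02 to 0.53). In H3K27ac the contact was 19.98, 32.7, 21.4, 26.96 and 31.8. The 30 m and 72 h values were higher than 0 m, with log2 changes of 0.71 (0.30 to 1.14) and 0.67 (0.23 to 1.12), against medians of 0.29 and 0.21 over all promoters. At 16 h the change was 0.43 and its interval held 0.

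The strongest contacts of INSR were with a site close to the start and with its own introns. Short loops hold much contact at promoters at large. In H3K27ac at 0 m, 18669 loops under 20 kb with a protein-coding promoter held 448126 read pairs, and 64347 loops of 20 to 100 kb held 356488. A strongest loop of 5 or 10 kb, as at IGF1R, INSR, IRS1, IRS2 and IGFBP3, is thus not in itself particular to a gene. The highest of INSR in both marks was a loop of 5 kb to chr19:7297001-7298000, just upstream of the start and outside annotated genes. It was called only in H3K27ac and had an H3K27ac contact of 3.82, 7.74, 4.27, 7.64 and 6.58. Next in both was chr19:7197001-7198000, an intron anchor 95 kb into the gene and called in both sets, with 2.64, 6.84, 2.56, 5.52 and 7.10 in H3K27ac and 12.1, 16.7, 24.7, 12.0 and 10.99 in H3K4me3. Both loops were at their lowest H3K27ac contact at 0 m and 4 h. The third in both was an intron anchor 10 kb into the gene, chr19:7282001-7283000, called only in H3K4me3. Loops of at least 20 kb alone gave an H3K4me3 change at 4 h of 0.87 (0.64 to 1.10). The partners with the most contact were ZNF557, a zinc finger gene, with 1.57, PNPLA6, a lysophospholipase, with 1.38, and CAMSAP3, a microtubule minus-end protein, with 1.01 in summed mean contact of both marks.

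IRS1, an adaptor of both receptors, starts at chr2:227664536 on the minus strand. Its H3K4me3 contact was 9.31 in vehicle, 17.1 after 30 m, 9.67 after 4 h, 16.2 after 16 h and 15.9 after 72 h, from 33, 50, 122, 84 and 58 read pairs. The values at 0 m and 4 h were low and the other 3 were higher, and at 4 h, where IGF1R, INSR and IRS2 were high, IRS1 was not. The log2 change was 0.80 at 16 h (0.21 to 1.43) and 0.05 at 4 h (-0.51 to 0.66), and it was 0.88 at 30 m (0.21 to 1.56) and 0.78 at 72 h (0.14 to 1.44) on fewer than 100 read pairs. H3K27ac contact was 7.05, 7.92, 11.8, 7.43 and 4.74, from 18 to 55 read pairs, and the highest, at 4 h, gave a log2 change of 0.74 (0.02 to 1.49), or 0.67 (-0.05 to 1.42) under equal totals.

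The strongest loop of IRS1 in both marks, of 5 kb and called only in H3K4me3, reached an exon of the gene itself at chr2:227657001-227658000. Its only promoter partner was RHBDD1, which encodes a rhomboid protease, 35 kb away at chr2:227702001-227703000. In H3K27ac that loop had 0 read pairs at 0 m and 8, 5, 9 and 2 at the later time points, and in H3K4me3 it had 4, 3, 17, 9 and 6. The third were distant anchors downstream, 910 kb away in H3K27ac (chr2:226752001-226753000) and, in an intron of NYAP2, 1130 kb away in H3K4me3 (chr2:226532001-226533000). They rest on 12 and 20 read pairs over the 5 time points.

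IRS2, the second adaptor, starts at chr13:110438930 on the minus strand and had the most loops of the 6. Its H3K4me3 contact was 29.3 in vehicle, 36.9 after 30 m, 78.2 after 4 h, 37.9 after 16 h and 42.3 after 72 h. The 4 h value was far above the others, and its log2 change of 1.41 (1.12 to 1.72, from 104 and 987 read pairs) was the largest called among the 6 genes, above the 95th percentile of all promoters (0.82). The change was 0.37 at 16 h (0.02 to 0.73) and 0.53 at 72 h (0.16 to 0.90), where the median over all promoters was 0.12 and -0.17. H3K27ac contact was 13.5, 13.3, 13.2, 20.2 and 20.3, from 46, 74, 62, 95 and 77 read pairs, with the values at 16 h and 72 h above the other 3. Both late changes were 0.58 (0.05 to 1.12 and 0.04 to 1.14), short of 1.5-fold, where the medians over all promoters were 0.20 and 0.21. Under equal totals they were 0.33 (-0.19 to 0.87) and 0.41 (-0.13 to 0.97), and the H3K4me3 change at 16 h was 0.23 (-0.12 to 0.59), so that all 3 intervals held 0.

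The strongest contact of IRS2 in both marks was a loop of 5 kb to chr13:110442001-110443000, upstream of the start in an intron of a long non-coding RNA. Its H3K4me3 contact was 4.51, 5.81, 20.52, 8.89 and 7.42, a log2 change of 2.19 at 4 h (1.46 to 3.01). Its H3K27ac contact was 2.94, 2.34, 2.14, 6.79 and 5.00, highest at 16 h and 72 h. Without it, the H3K4me3 change at 4 h was 1.22 (0.90 to 1.55). At 16 h this 5 kb loop changed by 1.21 in H3K27ac (0.15 to 2.40) and 0.98 in H3K4me3 (0.13 to 1.90). The longer IRS2 loops, grouped by length, all had intervals that held 0 at 16 h in both marks. The next loops ran upstream, to chr13:110637001-110638000, 200 kb away on an exon of a long non-coding RNA, and to the neighbouring anchors chr13:110762001-110763000 and chr13:110767001-110768000 in an intron of LINC03082, 325 kb and 330 kb away.

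IGFBP3, the main IGF carrier of the circulation, starts at chr7:45960871 on the minus strand. Its H3K4me3 contact was 12.1, 13.3, 16.2, 16.0 and 17.3 from 0 m to 72 h, from 39 to 204 read pairs, and every later value was above 0 m. The log2 changes of 0.14, 0.41, 0.40 and 0.51 all had intervals that held 0, except that the last was 0.64 (0.06 to 1.23) under equal totals. H3K27ac contact was 6.17, 7.02, 11.1, 7.86 and 5.53, highest at 4 h, where the log2 change was 0.85 (0.09 to 1.65) on 21 and 52 read pairs. The strongest loop in both marks, of 5 kb and called only in H3K4me3, reached an exon of the gene at chr7:45957001-45958000. The next reached an anchor 430 kb upstream outside annotated genes, chr7:46392001-46393000. The third were chr7:46972001-46973000, 1010 kb upstream, in H3K27ac and chr7:46372001-46373000, 410 kb upstream, in H3K4me3, each in an intron of a long non-coding RNA. These had 11 and 22 read pairs over the 5 time points. Its only promoter partner was IGFBP1, another member of the IGF binding protein family, with 5 H3K27ac and 16 H3K4me3 read pairs over the 5 time points.

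IGFBP5, a binding protein found in the matrix around cells, starts at chr2:217560272 on the minus strand. Its H3K27ac contact was 7.93 in vehicle, 3.24 after 30 m, 5.98 after 4 h, 4.46 after 16 h and 4.74 after 72 h, from 27, 18, 28, 21 and 18 read pairs. All 4 later values lay below 0 m, and only the 30 m change had an interval clear of 0, at -1.29 (-2.24 to -0.38). That was the 1 interval among 48 changes of the 6 genes that lay wholly below 0, and its 27 and 18 read pairs fall under the 100 asked of a call. Under equal totals the changes at 16 h and 72 h were -1.08 (-1.97 to -0.20) and -0.92 (-1.86 to -0.002), also below that number of read pairs. H3K4me3 contact was 1.69, 1.71, 3.01, 1.74 and 3.30, from 5 to 38 read pairs, and no change could be told from 0. Its strongest H3K27ac loops ran 40 kb and 55 kb upstream into an intron of DIRC3-AS1, chr2:217602001-217603000 and chr2:217617001-217618000, and then 995 kb upstream into an intron of DIRC3, chr2:218552001-218553000. In H3K4me3 the first was 195 kb downstream at the promoter of RPL37A, a ribosomal protein gene and its only promoter partner (chr2:217362001-217363000), followed by chr2:218617001-218618000 and chr2:218012001-218013000 upstream. Over the 5 time points the H3K27ac loops named had 18, 14 and 10 read pairs and those in H3K4me3 14, 11 and 9. Such counts are too few to fix an order.

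**Figure D4:**
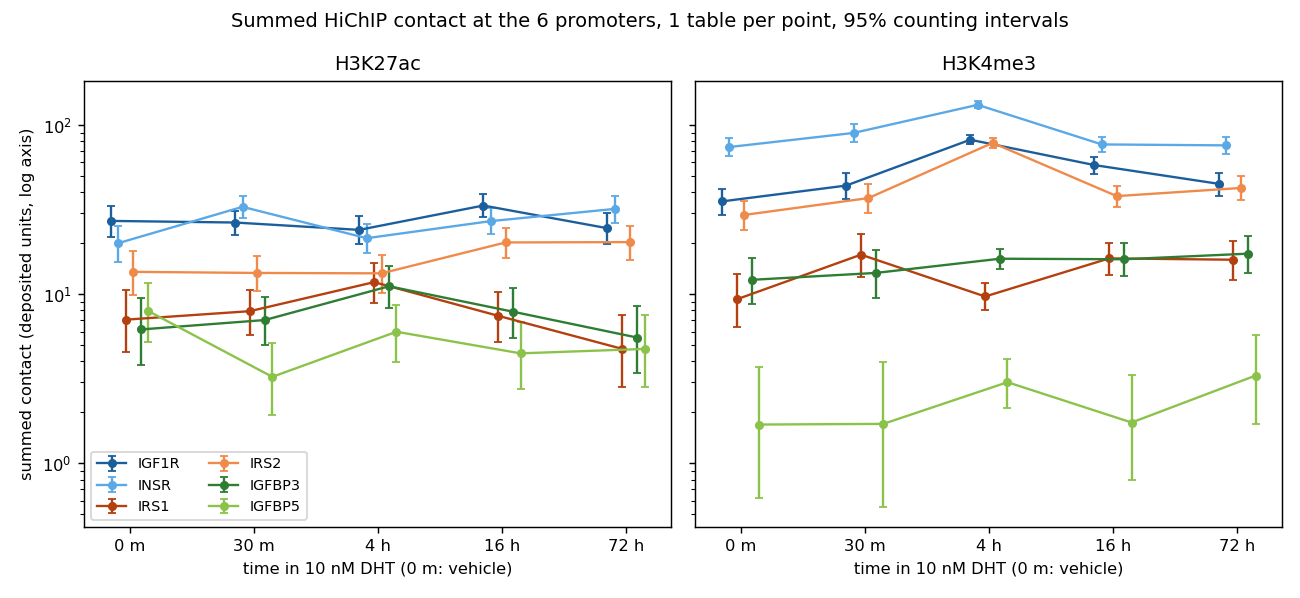
Summed contact of the 6 promoters in deposited units on a log axis, by time in 10 nM DHT with 0 m as vehicle, in H3K27ac and H3K4me3. Each point is 1 table and bars are exact Poisson 95% intervals of the read pairs. INSR is highest in H3K4me3 at every time point and IGFBP5 lowest, and IGF1R, INSR and IRS2 peak at 4 h in that mark.

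The order of the levels was compared at 0 m and 16 h. In H3K4me3 at 0 m it was INSR, IGF1R, IRS2, IGFBP3, IRS1 and IGFBP5. INSR had 2.1 times the read pairs of IGF1R (1.69 to 2.61), whereas IGF1R and IRS2, and IGFBP3 and IRS1, did not differ beyond counting error. At 16 h the order was INSR, IGF1R, IRS2, IRS1, IGFBP3 and IGFBP5, and only IRS1 and IGFBP3 could not be told apart. In H3K27ac IGF1R and INSR led at 0 m and 16 h without a difference beyond counting error (ratios of 1.35, 0.98 to 1.88, and 1.24, 0.97 to 1.57), followed by IRS2. At 30 m and 72 h the summed contact of INSR in H3K27ac was 32.7 and 31.8 and that of IGF1R 26.5 and 24.5, with counting intervals that overlapped at both times. IGFBP5, IRS1 and IGFBP3 came last at 0 m and 16 h and did not differ from their neighbours among the 3. Sums grow with the number of loops called at a promoter, and INSR, with 34 loops, exceeded IRS2, with 62, in all 10 tables. Against all promoters with a loop, INSR stood above 71.4% in H3K4me3 at 0 m, IGF1R above 49.4%, IRS2 above 45.0% and IGFBP5 above 12.5%.

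Single loops with at least 50 read pairs over 0 m and 4 h in H3K4me3 numbered 18 for the 6 genes, 12 of them of INSR. Of these 5 were past 2-fold higher, where 9.68% of all such loops were, and 0 were lower, against 1.06%. Each of the 5 had under 50 read pairs at 0 m and passed the filter through the deep 4 h table, where it was high, so the count is a description and supports nothing. Under equal totals 3 of the 18 were past 2-fold higher, beside 5.26% of all such loops, and the 2 no longer past it were those of INSR to chr19:7197001-7198000 and chr19:7162001-7163000. The 5, which are named here after their values were seen, were the 5 kb loop of IRS2, the 95 kb intron loop of INSR and 2 further INSR intron loops to chr19:7147001-7148000 and chr19:7162001-7163000, and an IGF1R intron loop to chr15:99227001-99228000. Their log2 changes were 2.19, 1.03, 1.49, 1.19 and 1.26, and the lower bounds of the last 3 were 0.44, 0.06 and 0.04. No loop of the 6 genes reached 50 read pairs over 0 m and 16 h in H3K27ac, where the most was 49, in INSR. At 30 m in H3K27ac only the 5 kb loop of INSR did, on 13 and 43 read pairs, so through the later table. It was past 2-fold higher, beside 9.43% of all such loops, but not under equal totals, beside 6.69%. In H3K4me3, 0 of 3 were higher at 30 m, 0 of 5 at 16 h and 0 of 3 at 72 h, beside 0.48%, 1.92% and 0.111%. None of these was lower, beside 0.474%, 0.348% and 2.83%.

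Other genes of the pathway were taken as a list of 48, of which 45 had a loop. At 16 h in H3K27ac, 9 of the 30 with at least 100 read pairs were higher and 1 was lower, beside 19.9% and 4.8% of all promoters, and their median log2 change was 0.24 against 0.20. Those higher were GRB10, an adaptor that inhibits the receptors (1.64, 1.29 to 1.99, from 1 loop), GAB1, a docking protein (1.28), RPS6KB1, the S6 kinase below mTOR (1.18), PDPK1, the kinase that activates AKT (0.84, from 2 loops), PIK3R2, a regulatory subunit of PI3-kinase (0.81), AKT2 (0.74), FOXO4, a forkhead factor held in check by AKT (0.70, on 33 and 74 read pairs, so that it passed the filter through the later table), TSC1, an inhibitor of mTOR (0.69), and PTPN1, a phosphatase of the receptors (0.69). The adaptor SHC1 was lower, at -1.10 (-1.54 to -0.66), with 4 loops. GRB10 and SHC1 were also the ends of the order. At 16 h in H3K4me3, 1 of 34 was higher and 0 were lower, beside 2.8% and 0.282%, with a median of 0.08 against 0.12. That gene was IGFBP2, a binding protein (0.62, 0.25 to 1.001), and the other end of the order was IGFALS, the carrier subunit of circulating IGF complexes, at -0.52 with an interval that held 0. Under equal totals the H3K27ac counts at 16 h were 4 higher and 3 lower of 30, beside 8.24% and 13% of all promoters, and the H3K4me3 counts 0 and 2 of 34, beside 1.02% and 0.926%. At 4 h in H3K4me3, when IGF1R, INSR and IRS2 were high, 7 of 36 genes of the list were higher and 1 was lower, beside 14.3% and 1.71% of all promoters, with a median of 0.28 against 0.23. SOCS2 and SOS1, which are among the 7, had under 50 read pairs at 0 m. Under equal totals 2 were higher and 3 lower, beside 5.32% and 5.16%. At 72 h 0 of 30 were higher and 3 lower, beside 0.655% and 5.64%, whereas under equal totals the balance turned to 2 higher and 1 lower, beside 1.63% and 1.83%. At 30 m 0 of 31 were called in either direction under both scalings, beside 0.461% of all promoters higher and 0.677% lower under the deposited one. In H3K27ac at 30 m 7 of 31 were higher and 0 lower, beside 19.7% and 2.06%, and under equal totals 4 and 0, beside 12.7% and 3.21%. FOXO4, which is among the 7, had 33 and 81 read pairs and so passed the filter through the later table. At 4 h 1 of 28 was higher and 0 lower under both scalings, beside 2.1% and 0.609% under the deposited one. At 72 h 7 of 28 were higher and 1 lower, beside 18.9% and 3.86%, and under equal totals 5 and 3, beside 9.7% and 7.79%.

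The pattern of a gene was also compared with 5528 promoters that had at least 100 read pairs in every table, by Pearson's r over 8 log2 changes, 4 per mark. The 4 changes of a mark share the 0 m table, so the points are not independent and r is a description only. A highest r among 5528 over 8 points is high by its choice. IRS1, IGFBP3 and IGFBP5 had under 50 read pairs at 0 m in both marks, and no likeness is given for them. The most alike were ATIC and IFNGR1 for IGF1R (r = 0.97 and 0.96), HNRNPDL and ENOPH1 for INSR (0.98 for both), and SIPA1L2 and FZD4 for IRS2 (0.98 for both). These 3 genes also fell under 100 read pairs in at least 1 H3K27ac table.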

How the data were processed

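HiChIP of H3K27ac and H3K4me3 in LNCaP cells was analysed. Per the methods of the study and the labels, the authors trimmed reads with Trim Galore 0.5.0, aligned them to hg19 and filtered them with HiC-Pro 3.1.0, called loops in 5 kb bins on all time points of a mark merged, and deposited contact signal per loop, scaled among time points by TMM. Whether both H3K27ac replicates entered a value is not given in the sources used here. All deposited signal values (100%) were whole multiples of 1 read pair, within 0.01 read pairs, from which counts were recovered; a count test was not run, since each group has 1 table. Totals lay between 2153262 and 10675614 read pairs.

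Both loop sets were joined and each anchor pair was used once. Starts came from Gencode 44 lifted to GRCh37, canonical transcripts. Intervals are exact (Poisson for sums, Clopper-Pearson for ratios). Members and lists were chosen with earlier results of these data known. Named were the 3 loops of highest mean contact per gene and mark, the 3 partner promoters of highest contact, the 2 most alike promoters (given for IGF1R, INSR and IRS2 only), and genes of the pathway list past 1.5-fold at 16 h or at an end of the order. Alternatives varied the scaling, loop length, loop set, starts, window and fold. Recovery of read pairs and the intervals were tested on simulated data. Python 3.11.15, numpy 2.4.6, pandas 2.3.3, scipy 1.17.1 and matplotlib were used. Some genes, sequences and motif matches in anchors are not reported here.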

Additional observations from a re-analysis of the deposited data

How the results depend on the processing

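No paired analysis was possible because the loops of H3K27ac carry 1 value at each time and those of H3K4me3 come from 1 sample. Of 208 recomputed log2 changes of summed contact, 204 stayed within the reported counting interval and 0 of the called ones changed sign. The 4 others were IGF1R in H3K27ac within the loops of its own set, which are 5 loops, at -0.17 at 16 h and 0.53 at 72 h, IGF1R in H3K4me3 at 4 h with the starts of every transcript, at 0.92, and INSR in H3K4me3 at 4 h with equal totals, at 0.60. With the starts of every transcript IGF1R had 76 loops. A window of 1 kb left 0 loops for INSR, IRS1, IGFBP3 and IGFBP5, because the 1 kb anchor sits in the middle of its 5 kb bin, and so no change could be computed for them. For IGF1R and IRS2 it kept the same loops, so those 16 values could not differ. IGFBP5 has 0 loops under 20 kb, so leaving out short loops could not change its values. An interval from few read pairs is wide, and calls lost under equal totals still counted as within it. The 204 of 208 is thus a description and no measure of stability.

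At a lower threshold, a log2 change of 0.32, 2 of the 3 genes tested were higher at 16 h in H3K27ac and 4 of 5 in H3K4me3, where 39.3% and 18.0% of all promoters were. The 2 were INSR, whose interval held 0, and IRS2, with 46 read pairs at 0 m. The 4 include IRS1 and IGFBP3, with 33 and 43 at 0 m, so these counts are a description only. At a fold of 2, 0 of 5 were higher in H3K4me3, against 0.132%. Of the 30 genes of the pathway list tested in H3K27ac, 3 were higher at a fold of 2 (4.46% of all promoters) and 4 with equal totals (8.24%), and 3 were lower at the lower threshold (13.6%) and 3 with equal totals (13%). Of the 34 tested in H3K4me3, 5 were higher at the lower threshold (18.0%), 0 at a fold of 2 (0.132%) and 0 with equal totals (1.02%), and 3 were lower at the lower threshold (3.0%) and 2 with equal totals (0.926%). Depth limits the binding proteins and IRS1 most, since their H3K27ac sums rest on 18 to 55 read pairs, and most single loops on a few.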
